A study of Drosophila melanogaster with 4 samples.

Results

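The genes described here encode the nuclear pore complex and the soluble machinery that carries cargo through it. They were chosen by name, with no measured value in the rule: every row whose symbol starts with Nup and a digit, and 15 further genes for the nuclear basket, the pore membrane, mRNA export, the importins, the exportin and the Ran cycle. This gave 36 genes of the 8806 rows for genes and transposable element families, 35 by their symbol and Mgtor through its synonym Mtor. RNA was taken from cultured BG3 cells, a fly line established from the central nervous system of larvae. Cells of the Cap-H2 knockdown group received dsRNA against Cap-H2, a subunit of the chromosome-compacting complex condensin II, and those of the Brown control group received dsRNA against Brown, an eye pigment gene. The labels give the genotype of the control as WT and name no other allele. Both groups were given 20 µg of dsRNA and cultured for 4 days, and each holds 2 libraries of stranded mRNA sequencing. Nothing in the labels says that a group's libraries stem from separate cultures, so p-values measure only the spread between libraries, which may be technical.

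The nuclear pore is a ring of repeated subcomplexes set into the nuclear envelope. Scaffold rings curve the membrane, proteins rich in phenylalanine-glycine repeats fill the channel, filaments reach into the cytoplasm and a basket reaches into the nucleus. Importins bind cargo in the cytoplasm and release it in the nucleus when they meet Ran bound to GTP, whereas exportins bind cargo together with Ran-GTP. In Drosophila several pore proteins, Nup98, Nup153 and the basket protein Mgtor among them, are also known to bind chromatin.

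Depth was even, with 21539511 to 21935781 reads per library on the listed rows. Cap-H2 had 543 and 555 normalized reads in the knockdown libraries against 880 and 873 in the control libraries, which limma gave as a log2 fold change of -0.67 with an SE of 0.06 and an adjusted p of 1.5e-05, so the targeted transcript was reduced and not absent. The neuronal marker elav had 564 and 577 normalized reads in the knockdown and 559 and 531 in the control. Another neuronal marker, futsch, had 235 and 235 in the knockdown against 248 and 231 in the control. In contrast, nSyb and brp, markers of mature synapses, had at most 4.00 in any library. The glial markers repo, moody and nrv2 summed to 8716 and 8658 in the knockdown against 9037 and 8849 in the control. Nearly all of it was moody and nrv2, as repo had 76.8 and 83.3 in the knockdown against 90.5 and 76.0 in the control. The neuroblast markers dpn, mira and pros summed to 46.9 and 36.5 in the knockdown against 41.3 and 31.0 in the control. No row matched the neuronal markers Syt1 and fne, the neuroblast markers ase and wor, or the glial marker gcm. The 5 blood cell markers summed to 16279 and 16371 normalized reads in the knockdown against 16270 and 16253 in the control. Most of this sum came from drpr and srp, and NimC1 had at most 7.87 in any library. The values of srp were 5928 and 6037 in the knockdown against 6374 and 6006 in the control. Single markers of this list separated the groups. Hml had 221 and 239 normalized reads in the knockdown against 339 and 287 in the control (log2 fold change -0.44, limma adjusted p = 0.10). Pxn was lower too, at 658 and 655 against 687 and 726 in the control (limma adjusted p = 0.69), whereas drpr was higher, at 9466 and 9435 against 8862 and 9228 in the control (limma adjusted p = 0.62). Their part in the results below was not tested. In bulk RNA, fewer cells of a type and less RNA per cell cannot be told apart.

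No gene of the pore or its transport machinery changed detectably after Cap-H2 knockdown. All 36 genes had enough reads to be tested, and limma with Benjamini-Hochberg adjustment over all 7690 tested rows called 0 of them at an adjusted p of 0.05, against 30 called rows (0.39%) in the whole table. At an unadjusted p under 0.05 there was 1 of 36, Fs(2)Ket, against 8.13% of all tested rows. The smallest adjusted p among the 36 was 0.55. Of the 36, 0 had an adjusted and 0 an unadjusted p under 0.05 in the authors' deposited table, where the smallest unadjusted p was 0.0667, again for Fs(2)Ket.

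Given the spread between these libraries, the size of change left possible was small for most of the 36 genes. The log2 fold changes of the 36 genes ran from -0.10 for Ndc1 to 0.15 for Nup35. Their median absolute value was 0.029, against 0.057 over all tested rows. The lists are unlike in level, with a median of 1882 normalized reads for the 36 genes against 659 over all tested rows. Median absolute gaps between libraries of a group were smaller too, 0.035 (knockdown) and 0.043 (control) against 0.067 and 0.069. The smaller median change was not tested apart from these differences. The 95% confidence interval of each gene, not adjusted for the number of genes, had a half-width between 0.059 and 0.20. For 35 of the 36 it lay within 0.25 on either side of 0, as for 4686 of the 7690 tested rows. The bound of 0.25 was chosen after the values were seen. The exception among the 36 was Nup35, whose interval reached 0.33, a value of 25.6% above the control. The lowest bound was that of Ndc1, a change of -14.1% from the control. A p that misses the threshold does not show equality, and these intervals give what the spread between libraries allows. That spread may be technical, so the intervals do not bound the change between separate cultures.

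**Figure D1:**
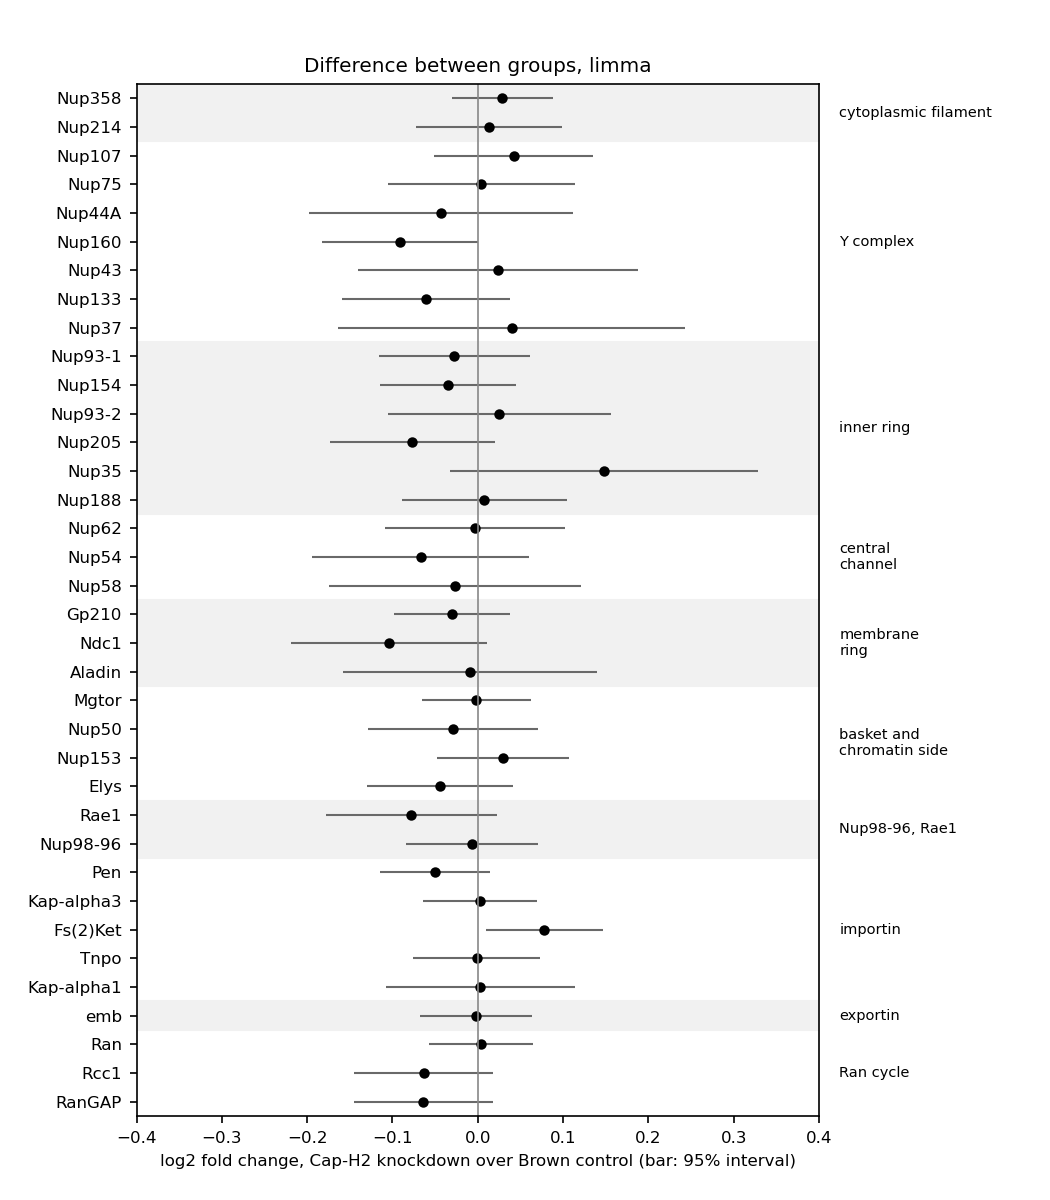
The log2 fold change (x axis, Cap-H2 knockdown over Brown control) of each of the 36 genes (rows, grouped by place in the pore or role in transport), with limma's 95% confidence interval as a bar. The points lie between -0.10 and 0.15, and the interval of Fs(2)Ket alone excludes 0.

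Direction was divided among the 36 genes: 22 (61.1%) had a negative and 14 a positive log2 fold change. Of all tested rows 50.1% were negative. With median centring of the libraries 16 of the 36 were negative, and the median of all tested rows rose to 0.014. Without centring the median of the 36 was -0.0050, against -0.00014 over all tested rows. For 14 of the 36 the knockdown and control libraries did not overlap, against 38.7% of all tested rows. Both knockdown libraries were above both control libraries for 5 genes (19.2% of all tested rows), which were Nup358, Nup107, Nup37, Nup35 and Fs(2)Ket. They were below for 9 (19.5% of all tested rows), which were Nup133, Nup160, Nup205, Ndc1, Gp210, Rae1, Pen, Rcc1 and RanGAP. Over both directions the share among the 36, 38.9%, lay next to that of the whole table.

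**Figure D2:**
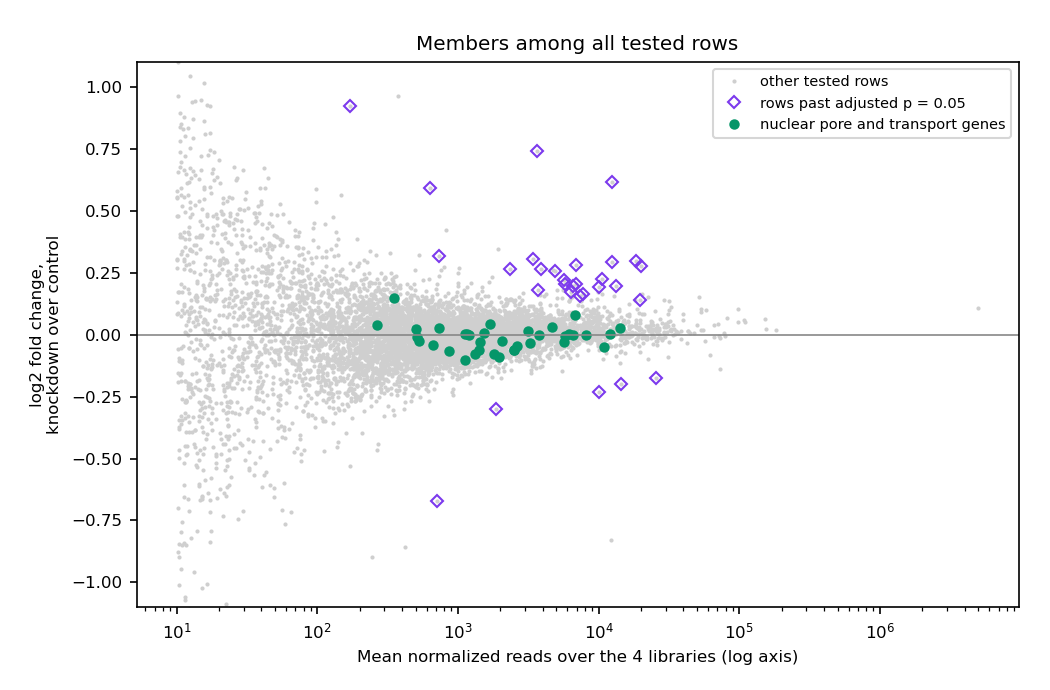
Mean normalized reads over the 4 libraries (x axis, log scale) against log2 fold change (y axis, knockdown over control) for all tested rows (grey), the 30 rows past an adjusted p of 0.05 (open diamonds) and the 36 nuclear pore and transport genes (filled circles). The 36 genes lie along 0 at mean levels from 267 to 14150 normalized reads. The y axis ends at 1.1 on either side of 0, which leaves 16 rows outside the plot.

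Levels were compared between genes per kilobase of annotated exon, with exons of all isoforms merged, so a gene with long alternative exons has a lower value than its main transcript would give. On this scale the 36 genes were abundant: their median was 596 normalized reads per kb over the 4 libraries, against 330 for the 7256 tested protein-coding genes with an annotation match, and 29 of the 36 were above that median. Soluble transport factors headed the order. Ran stood at 6322 ± 36.8 reads per kb in the knockdown and 6306 ± 108 in the control (SD, n = 2 each). Pen followed at 4180 ± 30.7 and 4329 ± 125, and Kap-alpha3 at 2168 ± 34.6 and 2164 ± 5.61. The most abundant structural component was Nup358, in the fourth place, and the lowest of all was Nup37, at 221 ± 1.65 reads per kb in the knockdown and 215 ± 6.08 in the control.

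**Figure D3:**
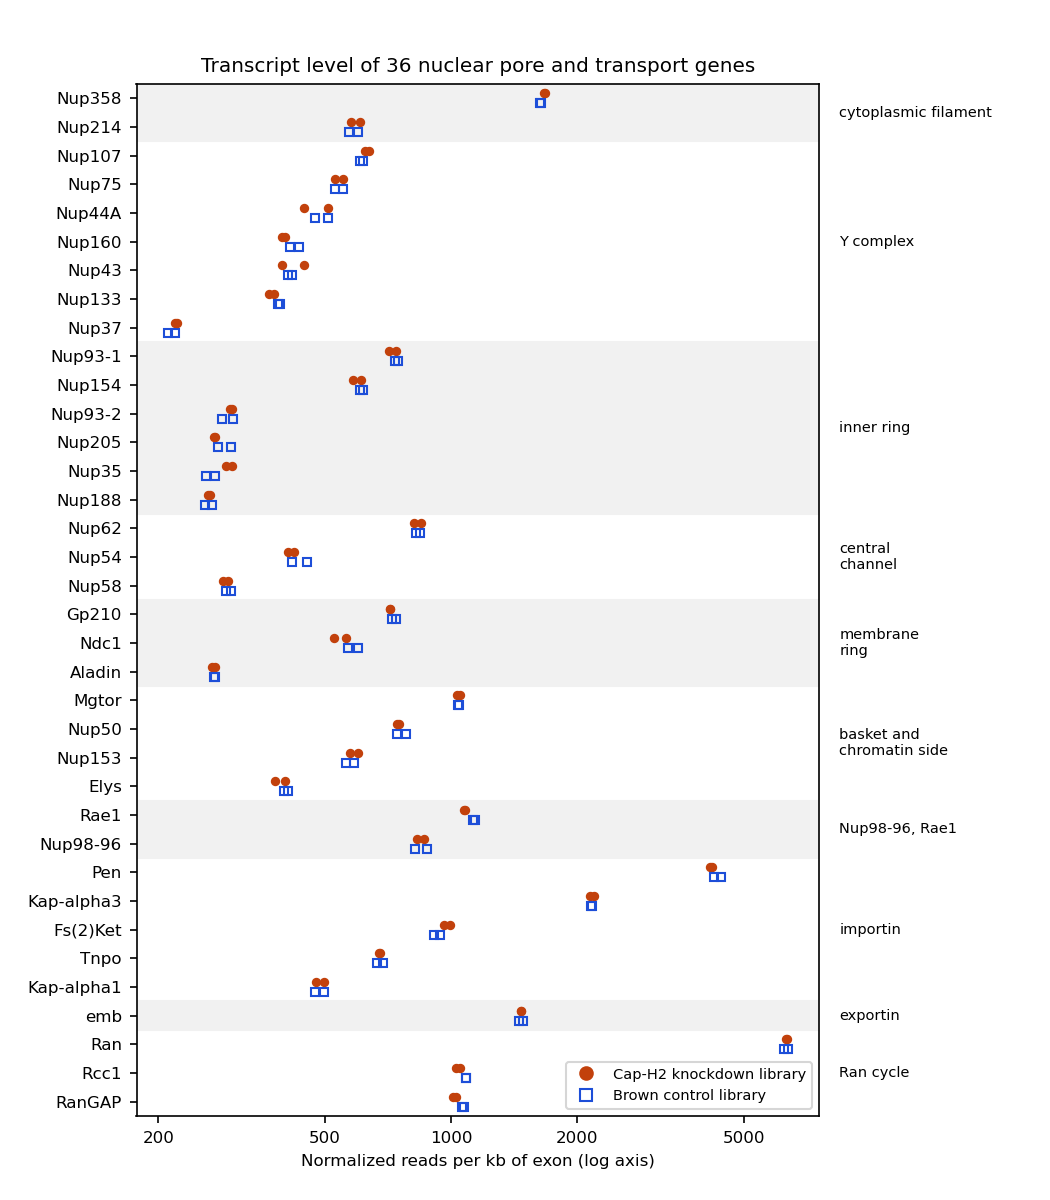
Normalized reads per kb of exon (x axis, log scale) for each of the 36 genes in the 2 Cap-H2 knockdown libraries (filled circles) and the 2 Brown control libraries (open squares). Levels span from 215 reads per kb (Nup37, control mean) to 6322 (Ran, knockdown mean), and within each gene the 4 libraries lie close together.

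Among the cytoplasmic filament genes, Nup358 encodes the large filament protein that binds Ran and anchors RanGAP at the pore. It lies on dm6 chromosome 3R, 25249348 to 25258672, plus strand, and had 14271 and 14308 normalized reads in the knockdown against 13952 and 14068 in the control. The groups did not overlap, and the log2 fold change was 0.029 (SE 0.028, limma adjusted p = 0.83). Nup37, a subunit of the Y complex, ends 247 bp upstream of Nup358 on the same strand, and its log2 fold change was 0.040 at a much lower level, 269 and 272 normalized reads in the knockdown against 269 and 258 in the control. Nup214, a repeat protein of the cytoplasmic face, had 0.013.

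The Y complex, named for its shape, builds the outer scaffold rings on both faces of the pore. The 7 genes placed in this class had log2 fold changes from -0.091 to 0.042, and 4 were positive and 3 negative. Nup96 and Sec13 also belong to the complex. The gene of Nup96 is described with Nup98 below, and Sec13, in the further list, had a log2 fold change of 0.062. Nup160 (chromosome 2L, 11123777 to 11129335, plus strand) had 1874 and 1902 normalized reads in the knockdown against 1962 and 2061 in the control. Both knockdown libraries were lower, and the log2 fold change of -0.091 (SE 0.043) had an unadjusted p of 0.0501 and a limma adjusted p of 0.61. Exons of Nup160 share 404 of 4747 bp with RfC38 on the other strand. The strand setting of the counting was not stated, so reads in such stretches may belong to either gene. Nup107, which pairs with Nup133 in the stem of the Y, had 1731 and 1688 normalized reads in the knockdown against 1678 and 1644 in the control, for a log2 fold change of 0.042 (SE 0.044, limma's adjusted p = 0.84). Nup133 itself lay on the other side of 0, at -0.060, also without overlap between groups. The other genes of this class were Nup75, Nup43 and Nup44A, the fly counterpart of Seh1. The libraries of Nup44A and Nup43 were the most spread of the 36 within the knockdown group, by 0.19 and -0.18 on the log2 scale (library 2 minus library 1), against 0.11 and 0.035 within the control, and their groups overlapped. Per kb the 7 genes of this class were unequal, from 221 reads for Nup37 to 630 for Nup107 in the knockdown. In the control they ran from 215 to 612 for the same genes.

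Inner ring genes encode the scaffold that lies in the plane of the membrane and holds the channel proteins. Of 6 genes 3 had a positive and 3 a negative log2 fold change. Nup35, the counterpart of the yeast and human proteins that touch the pore membrane, had the largest absolute value of the 36. It lies on the X chromosome, 18648182 to 18649489, plus strand, and had 375 and 362 normalized reads in the knockdown against 341 and 324 in the control. The knockdown libraries were both higher, but at this low level the error was wide (log2 fold change 0.15, SE 0.085, adjusted p = 0.68 in limma), and 94 of its 1249 exonic bp are shared with Hou on the other strand. Nup205, one of the large scaffold proteins, had 1771 and 1759 normalized reads in the knockdown against 1797 and 1929 in the control, so its control libraries were farther from each other than control library 1 was from the knockdown. The fly has a pair of Nup93 genes. Nup93-1 had 2063 and 1985 normalized reads in the knockdown and 2045 and 2081 in the control (log2 fold change -0.028, SE 0.042, limma adjusted p = 0.91). Per kb it exceeded Nup93-2 by a ratio of 2.50 and 2.37 in the knockdown libraries, and of 2.43 and 2.63 in the control libraries, and these ranges overlap. Exons of Nup93-2 share 688 of 2497 bp with CG14860 on the other strand, so some reads in this ratio may belong to that gene.

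The central channel genes Nup54, Nup58 and Nup62 encode repeat proteins that form one complex. Nup62 was the most abundant per kb, with 1182 and 1234 normalized reads in the knockdown against 1199 and 1221 in the control (log2 fold change -0.0031, SE 0.050, limma adjusted p = 0.99). Nup54 had 863 and 836 normalized reads in the knockdown against 852 and 928 in the control, and its log2 fold change was -0.067 (SE 0.060, limma adjusted p = 0.82). The groups overlapped for all 3 genes of the complex. All 3 values were negative, but that of Nup62 was positive with median centring and with quantile normalization.

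Membrane ring genes encode the anchors of the pore in the nuclear envelope. Ndc1, a membrane protein (chromosome 3R, 23924399 to 23926436, plus strand), had 1109 and 1040 normalized reads in the knockdown against 1184 and 1125 in the control. The groups did not overlap, and the log2 fold change was -0.10 (SE 0.054, unadjusted p = 0.0723, limma adjusted p = 0.65). Gp210, a glycoprotein with a large domain in the lumen of the envelope, had 5581 and 5575 in the knockdown against 5627 and 5762 in the control, and its log2 fold change was -0.030 (SE 0.032, limma adjusted p = 0.85). Aladin, which is held at the pore by Ndc1, had -0.0093. Of the 36 genes, 14 share some exonic sequence with another annotated gene or element. Ndc1 and Aladin are among them, with 65 of 1978 bp and 336 of 1888 bp on the opposite strand. The longest shared stretch is in Nup154 of the inner ring, with 1077 of 5420 bp on the opposite strand.

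On the nuclear side, Mgtor is the basket protein that corresponds to human TPR. It had 8028 and 8191 normalized reads in the knockdown against 8150 and 8090 in the control, and the groups overlapped (log2 fold change -0.0019, SE 0.030, limma adjusted p = 0.99). Its interval ran from -0.066 to 0.062. Elys, which binds chromatin and seeds pores on it after mitosis, had 2673 and 2530 normalized reads in the knockdown against 2710 and 2653 in the control, and its log2 fold change was -0.044 (SE 0.040, limma adjusted p = 0.82). Only 35 bp lie between the starts of Elys and of Ranbp21, an exportin gene on the opposite strand, whose log2 fold change was 0.042. The basket proteins Nup153 and Nup50 had 0.030 and -0.029. The log2 fold changes of the 4 genes of the nuclear side, from -0.044 to 0.030, lay within the range of the Y complex and inner ring genes.

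The repeat protein Nup98 and the scaffold protein Nup96 are cut from a precursor encoded by a single gene (FBgn0039120), and Rae1 binds Nup98 and takes part in mRNA export. Rae1 had 1282 and 1280 normalized reads in the knockdown against 1344 and 1360 in the control. Its libraries did not overlap between groups and were tight within them, and the log2 fold change was -0.078 (SE 0.047, limma adjusted p = 0.69). The gene of Nup98 and Nup96 had 5675 and 5893 in the knockdown against 5625 and 6003 in the control, so its knockdown libraries lay between its control libraries.

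Importin genes held the smallest p of the 36. Fs(2)Ket encodes importin beta, the receptor that carries importin alpha and its cargo through the channel (FBgn0262743, chromosome 2L, 20734609 to 20750941, plus strand). It had 6877 and 7106 normalized reads in the knockdown against 6522 and 6725 in the control. Both knockdown libraries were higher, by a log2 fold change of 0.078 (SE 0.033, interval from 0.0091 to 0.15), with an unadjusted p of 0.0289 and a limma adjusted p of 0.55 over all tested rows. The difference of the group means exceeded that between the libraries within each group, 0.047 in the knockdown and 0.044 in the control, which held for 10 of the 36 genes (27.8%) and 25.9% of all tested rows. With quantile normalization the log2 fold change was 0.041.

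Importin alpha proteins recognise the classical nuclear localisation signal, and the fly has Pen, Kap-alpha1 and Kap-alpha3. Pen, the counterpart of importin alpha2, had 10827 and 10715 normalized reads in the knockdown against 11385 and 10928 in the control. The knockdown libraries were both lower (log2 fold change -0.050, SE 0.031, limma adjusted p = 0.69), but control library 2 minus control library 1 was -0.059 on the same scale. Kap-alpha1 had 0.0031 and Kap-alpha3 had 0.0024. Among the reads per kb of the 3 genes, Pen took 61.6% and 60.7% in the knockdown libraries against 62.6% and 61.4% in the control libraries. The share of Kap-alpha3 was 31.4% and 32.0% against 30.6% and 31.4%, and that of Kap-alpha1 was 6.98% and 7.25% against 6.72% and 7.19%. Pen prevailed in all 4 libraries. The shares of the groups overlapped for Pen and Kap-alpha1 and narrowly did not for Kap-alpha3, whose 4 shares spanned 1.39 percentage points. The lower knockdown share of Kap-alpha3 was 31.42% and its higher control share 31.40%. Tnpo, transportin, which imports RNA-binding proteins, had -0.0011.

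The exportin emb, the fly counterpart of CRM1, carries proteins with leucine-rich export signals. It had 6605 and 6588 normalized reads in the knockdown against 6534 and 6679 in the control, so both knockdown libraries lay between the control libraries (log2 fold change -0.0021, SE 0.031, limma adjusted p = 0.99). The ratio of Fs(2)Ket to emb per kb was 0.654 and 0.677 in the knockdown libraries against 0.627 and 0.632 in the control libraries. These ranges do not overlap. An exact permutation test of 2 against 2 libraries cannot go below p = 0.333, so no test was made on this ratio, which was chosen after the values of Fs(2)Ket were known.

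In the Ran cycle, Rcc1 loads Ran with GTP on chromatin and RanGAP makes Ran hydrolyse it in the cytoplasm, which sets the gradient that gives transport its direction. Ran had 12048 and 11950 normalized reads in the knockdown against 11823 and 12113 in the control (log2 fold change 0.0039, SE 0.029, limma adjusted p = 0.99). RanGAP had 2432 and 2470 normalized reads in the knockdown against 2551 and 2574 in the control (log2 fold change -0.064, SE 0.038, limma adjusted p = 0.69). Rcc1 had 2427 and 2484 in the knockdown against 2569 and 2563 in the control (log2 fold change -0.063, SE 0.039, limma adjusted p = 0.69). For both regulators the groups did not overlap, and neither passed. Their ratio per kb, Rcc1 over RanGAP, was 1.01 and 1.02 in the knockdown libraries and 1.02 and 1.01 in the control libraries.

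**Figure D4:**
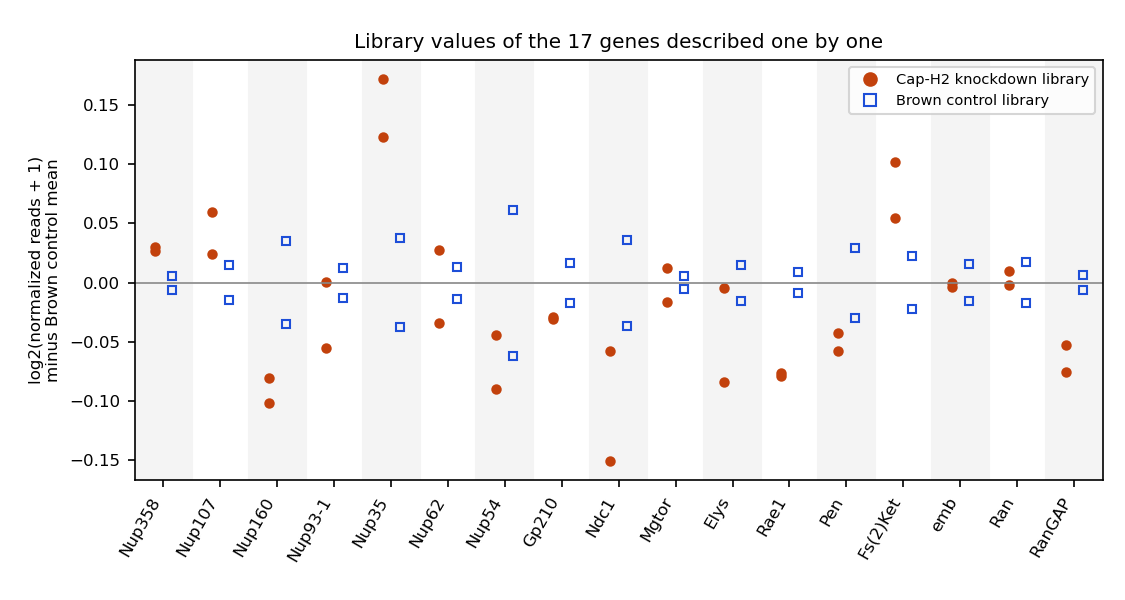
The value of each library, as log2(normalized reads + 1) minus the mean of the control libraries (y axis), for 17 of the 36 genes (x axis): in each class the gene with the smallest p and the most abundant per kb. Filled circles are Cap-H2 knockdown libraries and open squares Brown control libraries. Nup35 and Fs(2)Ket stand highest in the knockdown and Ndc1 lowest, and for Mgtor, emb and Ran the groups overlap.

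A further list held 36 genes of nuclear transport and mRNA export outside the naming rule, including other importins and exportins, the mRNA export receptor and the TREX complex, which couples transcription to export. It also held ranshi, which encodes a zinc finger protein and not a transport factor, and RanBPM, a scaffold protein. Of the 36, 0 passed limma at an adjusted p of 0.05, against 0.39% of all tested rows. An unadjusted p under 0.05 was found for 3 of the 36 (8.33%), 2 higher and 1 lower, against 8.13% of all tested rows. Gle1, an mRNA export factor that activates an RNA helicase at the cytoplasmic face, had 565 and 536 normalized reads in the knockdown against 643 and 623 in the control (log2 fold change -0.20, SE 0.068, limma adjusted p = 0.37). The gene mbo encodes the fly Nup88, the partner of Nup214, and had 945 and 951 in the knockdown against 861 and 855 in the control (log2 fold change 0.14, SE 0.055, limma adjusted p = 0.50). A TREX component, tex, had 424 and 403 in the knockdown against 376 and 344 in the control (log2 fold change 0.20, SE 0.084, limma adjusted p = 0.55). The groups did not overlap for these 3 genes, as for 16 of the 36 in the list (44.4%) and 38.7% of all tested rows. The median log2 fold change of the list was -0.0031, with 17 positive and 19 negative values. An adjusted p under 0.05 was given to 0 of them in the authors' deposited table.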

How the data were processed

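The main table holds, for each library, a signal of read counts divided by a size factor, as the authors deposited it; per the submitters' processing notes, fastp, HISAT2 and HTSeq were used with build dm6. Their versions, the annotation and the strand setting: not given in the sources used here. Every value was a whole multiple of 1 step per library (100% at a tolerance of 0.001 reads), and the reads per library are the signal divided by this step. For 2 libraries the step is so near 1 (1.00 and 0.997) that whole multiples are weaker evidence of a size factor, and count models were not run. The 3 special rows of HTSeq (11.5% to 13.9% of the signal) stayed out. A second table holds the log2 fold changes and p-values that the authors deposited, quoted only as theirs.

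The groups were compared with limma 3.58.1 in R 4.3.3 (mean trend, two-sided) on log2(normalized count + 1), a scale that understates changes of low genes, restricted to 7690 rows whose mean reached 10; the 1116 others were left out. Benjamini-Hochberg adjustment ran over all tested rows, and the threshold was 0.05. Residual degrees of freedom were 2 and the prior added 14.4, so errors rest mostly on the spread pooled over genes. The fit was tested on simulated data whose set changes were larger than those of the pore and transport genes. That test therefore cannot tell how well changes as small as theirs are found. Chi-square over degrees of freedom between libraries was 2.76 or more, so none was a duplicate. The lowest value, 2.76, was that between the knockdown libraries, and the control libraries had 4.61. Against knockdown libraries 1 and 2, control library 2 had 3.76 and 3.88, and control library 1 had 5.95 and 7.11. Control library 2 was thus nearer to the knockdown libraries than to control library 1, which limits every comparison of the groups.

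Genes were placed with Ensembl BDGP6.54 in dm6 coordinates, and all 36 matched. Genes described one by one were, in each class, the one with the smallest p and the most abundant per kb, and the 3 of the further list with the smallest p. Rcc1, Nup205, Nup37 and the gene of Nup98 and Nup96 were added after their values were seen. Of the 38 symbols listed there, Ranbp9 is Ipo9, also listed, and nxf4 was not analysed here. The members and lists were chosen with earlier results of these data known. The alternatives changed the pseudocount (0.5 or 5), the minimum (none or 50), the scaling (median centring, trimmed-mean factors or quantiles) or the variance model (robust, or with a replicate block), or left out 1 library.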

Additional observations from a re-analysis of the deposited data

How the results depend on the processing

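None of the 36 nuclear pore and transport genes and none of the 36 further transport genes passed the limma threshold under any of the 13 alternatives run. The smallest adjusted p of the pore and transport genes under any of them was 0.30. Over all tested rows there were 30 calls, with 14 under quantile normalization, 59 under robust empirical Bayes, 74 without control library 1, 127 without control library 2, 50 without knockdown library 1 and 41 without knockdown library 2. The median log2 fold change of the 36 genes, -0.0050, was 0.0092 with median centring and -0.024 with quantile normalization. Over all tested rows the median was 0.014 with median centring and -0.00056 with quantile normalization. When a library was left out, the median of the 36 genes lay between -0.020 and -0.0054. Values near 0 changed sign: with median centring Nup62 stood at 0.011, emb at 0.012, Mgtor at 0.012 and the gene of Nup98 and Nup96 at 0.0073, and with quantile normalization Nup62 stood at 0.0046 and Ran at -0.034. When a library was left out, Nup62 ranged from -0.034 to 0.028, emb from -0.018 to 0.014, Nup93-1 from -0.055 to 0.00032, Mgtor from -0.016 to 0.013, Ran from -0.014 to 0.021 and the gene of Nup98 and Nup96 from -0.054 to 0.040. In the same fits Fs(2)Ket ranged from 0.054 to 0.10, Ndc1 from -0.15 to -0.058, Nup54 from -0.13 to -0.0054, Elys from -0.084 to -0.0043, Pen from -0.080 to -0.021, Gp210 from -0.047 to -0.013, Nup160 from -0.13 to -0.056, Nup107 from 0.024 to 0.060, Nup205 from -0.13 to -0.026 and Nup37 from 0.011 to 0.068. The lone library is there assumed to vary like the other group. Median centring shifts the log2 fold change of every tested row by the same amount. The cause of the other moves was not tested.

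The replicate numbers of the labels are shared by the groups, but nothing says that they pair the libraries, and the correlation of the differences between libraries 2 and 1 in both groups was -0.027 over the 7690 tested rows and 0.34 over the 36 genes. With a replicate block there were 146 calls, 0 of them among the 36 genes.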
